A study of Homo sapiens with 5 samples.

Results

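The genes between RIOX2 and MECOM on the long arm of chromosome 3 were examined as a block, to describe how transcripts of one chromosome segment differed between HEK293 cells that stably carry PRL-1 and cells that carry the empty vector. The members are all genes whose start lies from RIOX2 to MECOM and that have 1 or more probe sets that carry a single gene symbol on HG-U133 Plus 2.0, leaving out 8 genes of the segment (NECTIN3, ITGB5, MCM2, STAG1, RPL24, NDUFB4, ARHGAP31 and ARHGEF26). This gave 398 of the 19735 genes on the array that could be placed. Each gene was read from whichever of its probe sets was brightest on average, and 182 members with a mean log2 signal of 8 or more over the 5 arrays (a signal of 256) are called bright and the other 216 dim. The segment was chosen with the difference between PRL-1 and vector arrays of its own genes in view, so that difference is given for the members as a description. Intervals and calls of single members come from 1 limma fit across all tested probe sets and are no independent evidence about the segment.

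HEK293 is a line derived from human embryonic kidney. HEK293-PRL-1 cells were stably transfected with PRL-1 in pcDNA4 (2 arrays), and HEK293-vector cells with pcDNA4 alone (3 arrays). The gene of PRL-1 is PTP4A1, and its product is a small membrane-bound phosphatase of the protein tyrosine phosphatase family. The labels call the arrays biological replicates and the methods speak of independent cultures, all cultures of a group being of 1 stable line, so what PRL-1 itself does and what else sets the lines apart cannot be told apart. The authors left out a further PRL-1 array whose RNA showed no raised PRL-1 by qRT-PCR. The values are MAS5 signals, a brightness per probe set on a linear scale. Genomic DNA was not measured in these samples.

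The order of genes along a human chromosome arm is largely one of inheritance and not of shared function, and neighbouring genes usually serve unrelated processes. Between RIOX2, a ribosomal oxygenase that modifies a ribosomal protein in the nucleolus, and MECOM, a zinc finger transcription factor of blood stem cells, lie genes of the secretory pathway, of mitochondria, of DNA repair and of receptor signalling, together with genes known from lymphocytes and neurons. Housekeeping genes typically start in stretches rich in CpG dinucleotides, whereas many tissue-restricted genes do not. Of the members, 327 are annotated as protein coding, 63 as long non-coding RNAs and 8 as pseudogenes. The bright members include 178 protein-coding genes, 3 long non-coding RNAs and 1 pseudogene.

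Over the tested probe sets vector replicate 3 stood apart, with log2 correlations of 0.938 to 0.947 with the other arrays, which correlated at 0.954 to 0.964 among themselves. The 4 bright probe sets of PTP4A1 had log2 fold changes (PRL-1 minus vector, as throughout) of 0.06 to 0.15 with limma adjusted p from 0.737 to 0.892, so none was called. Whether they detect the transcript of the construct is not known here. The paper states that earlier work found both PRL-1 mRNA and protein raised in this line above the vector cells. Of 11 measured markers of kidney epithelium, HEK293 or neurons, 9 had a signal of at least 100 on all 5 arrays, among them KRT8, PAX8 and NEFL, whereas NEFM reached it on none. Of 11 measured markers of leukocytes, endothelium, fibroblasts and liver, PTPRC, CD14, CDH5 and ALB reached it on no array, and CD3E, PECAM1, COL1A1 and DCN on all 5. With limma 65 of 33818 tested probe sets were called at an adjusted p of 0.05.

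Transcripts of the bright members were mostly higher in HEK293-PRL-1 cells. In these bulk RNA samples, a change in the share of cells with a transcript and in its amount per cell cannot be told apart. The median log2 fold change of the bright members was 0.32, or 1.25-fold, with quartiles of 0.18 and 0.48 and a range of -0.43 to 0.94. Of the 182 bright members 165 (90.7%) lay above 0 and 17 below it, and 20 were over 1.5-fold higher. Among the 9978 bright genes outside the segment the median was -0.01, the quartiles were -0.16 and 0.14, and 48.1% lay above 0. In 121 bright members (66.5%) both PRL-1 arrays exceeded all 3 vector arrays, and in 1 both lay under all 3, beside 16.2% higher and 17.4% lower without overlap among bright genes elsewhere. The distribution plot shows this as a curve of bright members lying to the right of that of other bright genes along most of its length, while the extremes of the other genes reach further on both sides.

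**Figure D1:**
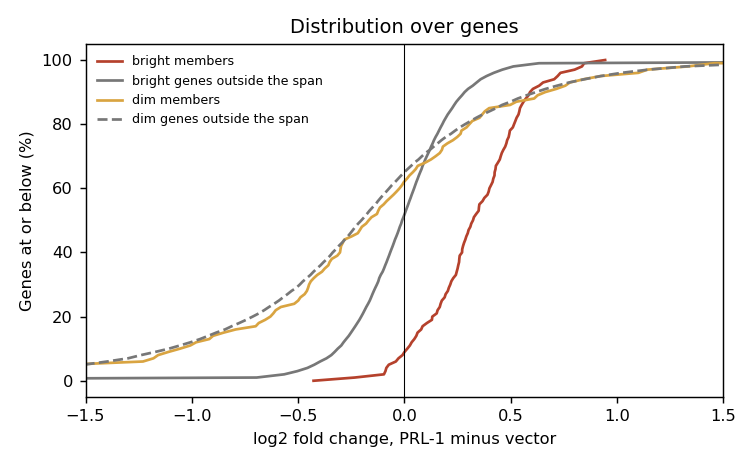
Cumulative share of genes (%, vertical axis) at or below each log2 fold change, PRL-1 minus vector (horizontal axis, drawn from -1.5 to 1.5), for 182 bright members, 9978 bright genes outside the segment, 216 dim members and 9359 dim genes outside it. The medians are 0.32 for bright members and -0.01 for bright genes elsewhere, and -0.17 for dim members and -0.20 for dim genes elsewhere.

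Dim members lay close to dim genes elsewhere. Their median log2 fold change was -0.17, with quartiles of -0.50 and 0.23, and 82 of 216 (38.0%) lay above 0, while dim genes elsewhere had a median of -0.20 with 34.9% above 0. Groups did not overlap in 14 dim members that were higher and 31 that were lower in HEK293-PRL-1 cells, beside 5.47% higher and 17.2% lower among the 9359 dim genes elsewhere. All arrays of both groups lay under a signal of 100 in 94 of the dim members, and 98 of them passed the filter for testing, a signal of at least 100 on at least 2 arrays. The 98 had a median of -0.13, against -0.16 for the 4237 such dim genes elsewhere. The threshold itself was met just barely by CD200R1 and LINC02035, with mean log2 signals of 8.08 and 8.01 and log2 fold changes of -0.24 and 0.25, and missed just barely by CD80 and SLCO2A1, with mean log2 signals of 7.98 and 7.99 and log2 fold changes of -0.19 and 0.06.

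Brightness was followed further within the bright members. Those with a mean log2 signal from 8 to 9 had a median log2 fold change of 0.25 (n = 37), those from 9 to 10 of 0.37 (n = 46), those from 10 to 11 of 0.33 (n = 43) and those of 11 or more of 0.34 (n = 56). In the same steps bright genes elsewhere had medians of -0.07, -0.02, 0.01 and 0.02. The 178 bright protein-coding members had a median of 0.33, and the other 4 bright members one of 0.12.

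Array by array, the median deviation of the bright members from the vector mean was 0.36 on PRL-1 replicate 1 and 0.31 on PRL-1 replicate 2, against 0.09, 0.05 and -0.15 on vector replicates 1, 2 and 3 (log2). Both PRL-1 arrays lay above all vector arrays in this summary, and vector replicate 3 was the lowest array, as it was among the vector arrays in 129 of the 182 bright members taken singly. Without vector replicate 3 the median log2 fold change was 0.28. The dim members ran in the other order within the vector group, with deviations of -0.10, 0.01 and 0.21 on vector replicates 1, 2 and 3, and gave -0.25 and -0.01 on the PRL-1 arrays. For bright genes outside the segment the medians of all 5 arrays lay between -0.01 and 0.01.

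**Figure D2:**
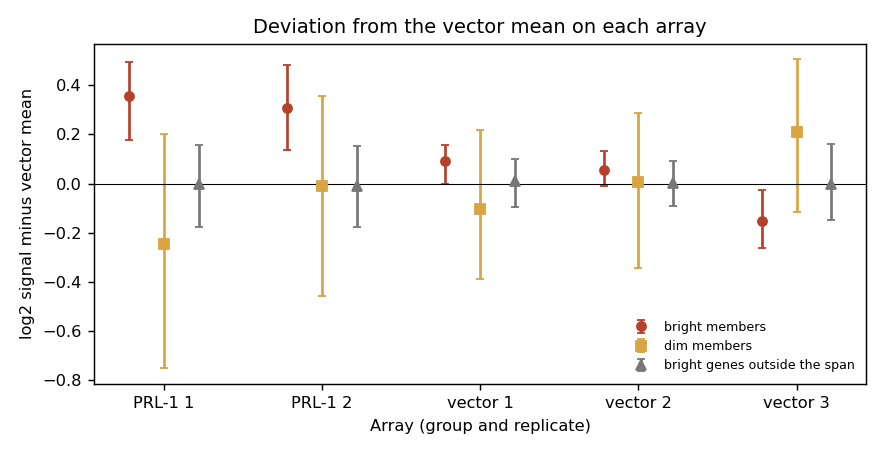
Median over genes of log2 signal minus the vector mean (vertical axis) on each array (horizontal axis, PRL-1 replicates 1 and 2 on the left, vector replicates 1 to 3 on the right), for bright members, dim members and bright genes outside the segment. Bars span the quartiles over genes, and the bright members sit at 0.36 and 0.31 on the PRL-1 arrays, against 0.09, 0.05 and -0.15 on the vector arrays.

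Along the segment the difference was spread over its whole length. When the members were divided in gene order into 3 parts of similar size, the bright members had a median log2 fold change of 0.33 in the proximal (n = 59), 0.35 in the middle (n = 67) and 0.27 in the distal part (n = 56), and the dim members one of -0.12, -0.15 and -0.20. Every window of 20 consecutive bright members had a median above 0, between 0.16 for the window from MBNL1-AS1 to KPNA4 and 0.48 for the window from IFT57 to TMEM39A. At the proximal end, RIOX2 had signals of 1840.2 and 1874 on the PRL-1 arrays, against 1652, 1746 and 1438 on the vector arrays. At the distal end, MECOM had 875 and 928 on the PRL-1 arrays, against 754, 731 and 672 on the vector arrays. Both were higher without overlap, with log2 fold changes of 0.21 (95% interval -0.08 to 0.49) and 0.33 (0.03 to 0.63).

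Beyond the ends of the segment the values differed between the sides. The 298 bright genes of chromosome 3 before RIOX2 had a median log2 fold change of -0.17 with 22.5% above 0, and on single arrays -0.14 and -0.17 on the PRL-1 arrays, against 0.04, 0.04 and -0.07 on the vector arrays. The last 20 of them before RIOX2 had a median of 0.01, with 10 above 0 and 10 below. The 3 genes directly before RIOX2, NSUN3, ARL6 and CRYBG3, had log2 fold changes of 0.37, 0.42 and 0.20, within the range of the bright members, and EPHA3, PROS1 and DHFR2 before them had -0.79, 0.31 and -0.05, so the higher level did not begin sharply at RIOX2. The 94 bright genes after MECOM had a median of 0.22 with 83.0% above 0, and the first 20 of them one of 0.22, so the higher level did not end at MECOM either. On single arrays these 94 genes gave 0.23 and 0.19 on the PRL-1 arrays, against 0.05, 0.06 and -0.10 on the vector arrays. The 6 bright genes among those left out of the segment had a median of 0.22, with 5 above 0.

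**Figure D3:**
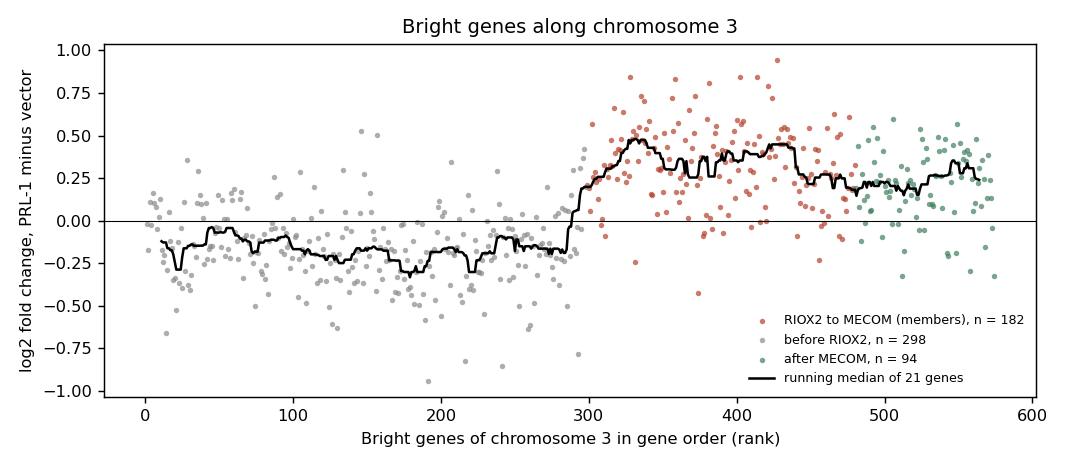
Log2 fold change, PRL-1 minus vector (vertical axis), of 574 bright genes of chromosome 3 in gene order (horizontal axis, rank), with 182 members between 298 genes before RIOX2 and 94 after MECOM. The black line is the running median of 21 genes, and the group medians are 0.32 for the members, -0.17 before RIOX2 and 0.22 after MECOM.

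Other chromosomes were set beside the segment as a description. With the members taken out, the median log2 fold change of the bright genes of a chromosome ran from -0.15 for chromosome 10 to 0.20 for chromosome 20, with 0.16 for chromosome 13, all below the 0.32 of the members. Shorter stretches elsewhere came near the segment's highest window of 0.48, since the highest window of 20 consecutive bright genes had a median of 0.45 on chromosome 19, 0.44 on chromosome 18 and 0.39 on chromosome 20. No test of the segment against other chromosomes was made because its limits were chosen from these values.

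**Figure D4:**
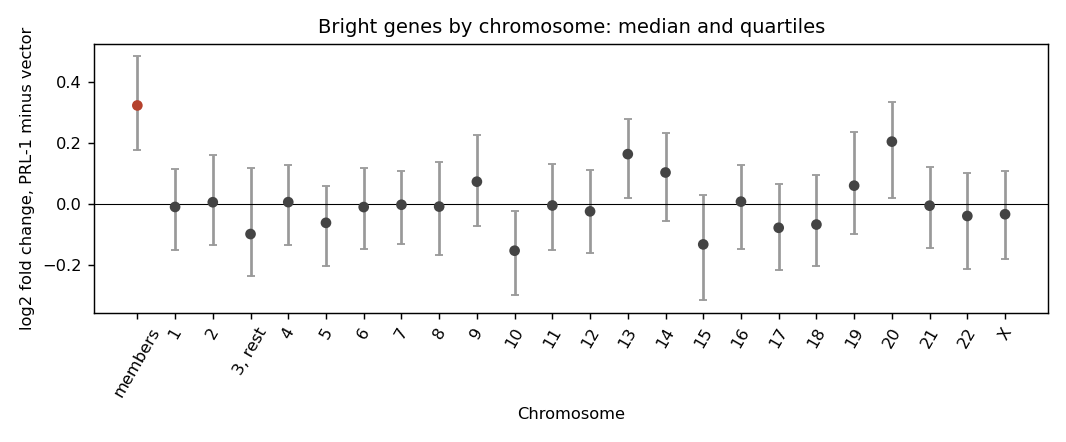
Median log2 fold change, PRL-1 minus vector (vertical axis, points), of the bright genes of the segment and of each chromosome without the members (horizontal axis), with bars for the quartiles over genes. The segment's median of 0.32 lies above every chromosome median shown, of which the highest is 0.20 for chromosome 20 and the lowest -0.15 for chromosome 10.

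SLC35G2, a multi-pass membrane protein of the nucleotide sugar transporter-like SLC35 family, was the only member with a called probe set, as 1 of 281 member genes that could be tested. Its signals were 1577 and 1534 on the PRL-1 arrays, against 879.8, 856 and 868 on the vector arrays. Both groups were tight and far apart, averaging 1556 ± 30.2 (SD, n = 2) on the PRL-1 arrays and 868 ± 11.8 (SD, n = 3) on the vector arrays, which is 1.79-fold (log2 fold change 0.84, 95% interval 0.58 to 1.11). No member was called lower. Over all tested probe sets 0.0591% were called higher and 0.133% lower in HEK293-PRL-1 cells, and since the segment was chosen on this contrast nothing is read from the members' count. At an unadjusted limma p under 0.05 there were 171 higher and 11 lower probe sets among the 547 tested ones of the members, and 9.72% of all tested probe sets in either direction. The second tested probe set of SLC35G2 was dim and scattered, with 141 and 122 on the PRL-1 arrays, against 40.7, 21.7 and 164 on the vector arrays.

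The start of SLC35G2 is shown because it is the called member, beside those of ZBTB38, the bright member with the highest log2 fold change, KLF15, the one with the lowest, and BCHE, the dim member with the lowest among those with enough signal to name. Each window runs from 250 bases before to 50 bases after the start of the gene (RefSeq, GRCh38.p14), is written 5′ to 3′ on the gene's own strand, and has its CpG dinucleotides in capitals. SLC35G2 lies on the plus strand at chr3:136818876-136819175 (31 CpGs), ZBTB38 on the plus strand at chr3:141323936-141324235 (1 CpG), KLF15 on the minus strand at chr3:126357359-126357658 (50 CpGs) and BCHE on the minus strand at chr3:165837374-165837673 (2 CpGs).
SLC35G2: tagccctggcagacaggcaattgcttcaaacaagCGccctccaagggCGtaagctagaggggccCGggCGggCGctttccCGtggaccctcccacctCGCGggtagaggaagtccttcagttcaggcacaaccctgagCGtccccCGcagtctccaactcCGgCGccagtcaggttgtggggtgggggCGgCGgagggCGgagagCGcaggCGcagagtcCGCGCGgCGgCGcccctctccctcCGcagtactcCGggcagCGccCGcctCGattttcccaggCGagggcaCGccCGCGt
ZBTB38: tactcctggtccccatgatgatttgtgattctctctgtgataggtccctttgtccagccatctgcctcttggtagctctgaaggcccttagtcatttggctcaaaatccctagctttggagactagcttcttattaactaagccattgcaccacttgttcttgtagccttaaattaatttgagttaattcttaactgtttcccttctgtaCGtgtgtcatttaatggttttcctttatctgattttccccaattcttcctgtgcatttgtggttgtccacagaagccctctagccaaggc
KLF15: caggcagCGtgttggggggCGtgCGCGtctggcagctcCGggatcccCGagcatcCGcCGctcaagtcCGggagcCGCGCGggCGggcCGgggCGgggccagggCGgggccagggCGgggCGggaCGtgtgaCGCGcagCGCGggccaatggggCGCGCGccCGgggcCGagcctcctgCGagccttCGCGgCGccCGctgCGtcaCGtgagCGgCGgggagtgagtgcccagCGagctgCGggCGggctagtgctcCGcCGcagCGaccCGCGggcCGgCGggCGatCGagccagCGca
BCHE: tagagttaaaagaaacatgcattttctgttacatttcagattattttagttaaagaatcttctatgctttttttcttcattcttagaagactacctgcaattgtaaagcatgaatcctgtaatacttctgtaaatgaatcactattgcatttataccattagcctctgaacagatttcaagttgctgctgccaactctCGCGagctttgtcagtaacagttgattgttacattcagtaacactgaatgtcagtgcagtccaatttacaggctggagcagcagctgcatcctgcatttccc

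The capitals are dense in SLC35G2 and KLF15 and nearly missing in ZBTB38 and BCHE. These 4 genes were picked by their calls or log2 fold changes, so nothing is read from their CpG content about the difference. A window was found for 165 of the 182 bright and 187 of the 216 dim members. Bright members held a median of 25 CpGs (quartiles 19 and 32) and dim members 6 (2 and 23), against 27 in bright and 10 in dim genes elsewhere and 14 over all 27305 windows. The median GC content was 64.0% in bright and 52.3% in dim members, against 65.7% in bright and 58.2% in dim genes elsewhere. The observed over expected CpG ratio was 0.85 and 0.39, against 0.85 and 0.47 elsewhere. TATAAA on either strand occurred in 6.67% of bright and 14.97% of dim members, against 4.86% and 13.4% elsewhere (11.95% of all windows). CCAAT on either strand occurred in 39.4% and 31.6%, against 37.5% and 34.4% elsewhere (35.7% of all windows). The 2 motifs do not contain each other.

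The log2 fold change of the bright members was also set beside these features. The 65 with CCAAT had a median of 0.30 and the 100 without it 0.35, and the 91 with at least the median number of CpGs had one of 0.31 and the 74 with fewer 0.33. These are matches of letters in a fixed window and do not show a bound factor.

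The neighbours of SLC35G2 were read next. Before it in gene order, PPP2R3A, a regulatory subunit of protein phosphatase PP2A, had signals of 417 and 446 on the PRL-1 arrays, against 466, 297 and 318 on the vector arrays (log2 fold change 0.29). MSL2, an E3 ubiquitin ligase of the male-specific lethal histone acetyltransferase complex, gave 784 and 815 on the PRL-1 arrays, against 556, 588 and 612 on the vector arrays (0.45). PCCB, the beta subunit of mitochondrial propionyl-CoA carboxylase, gave 2236 and 2126 on the PRL-1 arrays, against 2002, 1838 and 1865 on the vector arrays (0.20). The groups of MSL2 and PCCB did not overlap, whereas vector replicate 1 of PPP2R3A lay above both PRL-1 arrays. After SLC35G2, the adaptor NCK1, which links receptor tyrosine kinases to actin, gave 1063 and 1154 on the PRL-1 arrays, against 882, 866 and 636 on the vector arrays (0.49), and all 4 of its tested probe sets lay above 0. NCK1-DT, a dim non-coding transcript that starts beside NCK1, lay the other way without overlap, with 139 and 152 on the PRL-1 arrays, against 204, 169.9 and 179 on the vector arrays (-0.34). IL20RB, a cytokine receptor chain, was not tested, with 68.7 and 73.6 on the PRL-1 arrays, against 47.0, 19.2 and 106 on the vector arrays. Among these 6 members the log2 fold change of SLC35G2 was matched by none that could be tested, the nearest being 0.49 for NCK1. Left-out genes that may lie between them were not compared.

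The other bright members at the top of the list came from unrelated processes. ZBTB38, a zinc finger protein that binds methylated DNA, gave 861 and 839 on the PRL-1 arrays, against 463, 387 and 482 on the vector arrays, the highest log2 fold change of any bright member (0.94, 95% interval 0.59 to 1.30). All 4 of its tested probe sets lay above 0, at 0.94, 0.58, 0.49 and 0.41. C3orf52, a membrane protein of the endoplasmic reticulum, gave 895 and 920.2 on the PRL-1 arrays, against 510.3, 541 and 466 on the vector arrays (0.85), while its second, dimmer probe set had -0.11. TMEM108, a transmembrane protein of neurons, gave 414 and 452 on the PRL-1 arrays, against 225, 216 and 287 on the vector arrays (0.84). These 3 genes had tight groups with a wide gap between them.

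In the next 4 genes vector replicate 3 lay well below the other vector arrays. RUVBL1, an ATPase of chromatin remodelling complexes, gave 6189 and 5579.9 on the PRL-1 arrays, against 4069, 3977 and 2336 on the vector arrays (0.81, 95% interval 0.30 to 1.32). DTX3L, a ubiquitin ligase of the DNA damage and interferon responses, gave 1256 and 1101 on the PRL-1 arrays, against 789, 748 and 491 on the vector arrays (0.83, 0.35 to 1.31). FAIM, an inhibitor of Fas-mediated apoptosis, gave 3529.7 and 3222 on the PRL-1 arrays, against 2288, 2199 and 1477 on the vector arrays (0.79, 0.36 to 1.21). In none of the 3 did the groups overlap, and vector replicate 3 set the width of their vector groups. OSBPL11, a lipid-binding protein of the Golgi and endosomes, gave 1836 and 1702 on the PRL-1 arrays, against 1145, 1294 and 809 on the vector arrays (0.73).

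**Figure D5:**
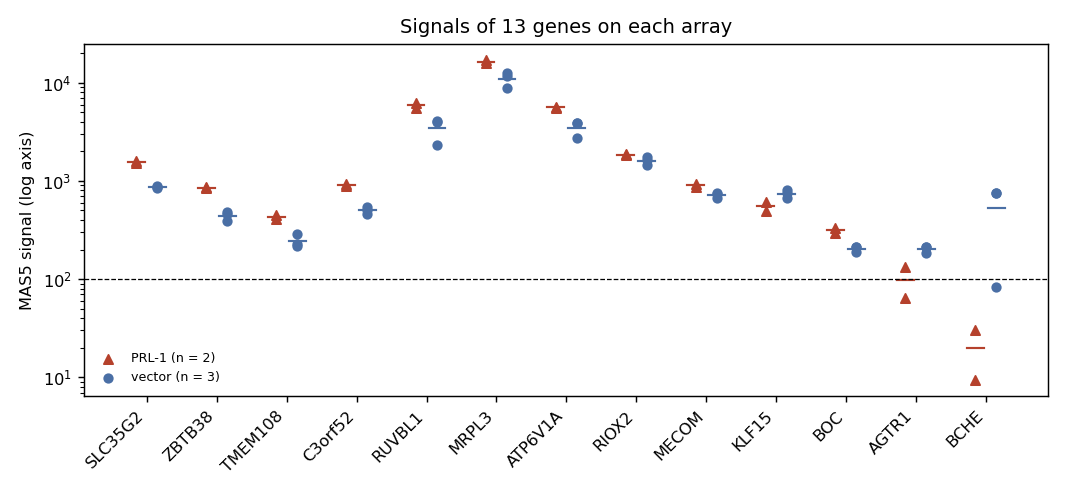
MAS5 signal on a log axis (vertical) of 13 genes of the segment (horizontal), with 2 PRL-1 arrays (triangles, left of each pair) and 3 vector arrays (circles, right), lines at the arithmetic group means and a dashed line marking 100. SLC35G2 sits at 1577 and 1534 on the PRL-1 arrays, against 879.8, 856 and 868 on the vector arrays, and levels are comparable within a gene and not between genes.

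Lists of genes by role, 194 genes in 10 lists written from textbook knowledge with results of these data known, held 185 members, of which 134 were bright and 159 tested. Apart from SLC35G2 no gene on them was called. Of the 134 bright genes 126 lay above 0, and in 91 the groups did not overlap with PRL-1 higher, beside 48.1% above 0 and 16.2% higher without overlap among bright genes elsewhere. The medians over bright genes of the 9 lists with more than 1 bright gene ran from 0.26 to 0.51. The lists draw on members chosen on this contrast, so nothing is read from these medians.

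Genes of the secretory pathway, which moves proteins from the endoplasmic reticulum outward, had 23 of 23 bright genes above 0 and 14 without overlap (median 0.33, none called). COPB2, a coat protein of transport vesicles, had the highest value with 3823 and 3570.3 on the PRL-1 arrays, against 2318, 2383 and 2049 on the vector arrays (0.72). SEC61A1, the channel of the endoplasmic reticulum membrane, had a log2 fold change of 0.60, and the small GTPase RAB7A of late endosomes one of 0.51. Among the brightest of the list, TFG, which organises exit sites of the endoplasmic reticulum, gave 6231 and 6303 on the PRL-1 arrays, against 5287, 4869 and 4849 on the vector arrays (0.33). SERP1, a stress-associated protein of that membrane, gave 10014 and 7753 on the PRL-1 arrays, against 8622, 7971 and 5664 on the vector arrays (0.27). SERP1 overlapped, because PRL-1 replicate 2 lay below 2 vector arrays, and SSR3, a subunit of the translocon-associated complex, had the lowest value of the list (0.03).

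Genes of genome maintenance and mitosis had 13 of 14 bright genes above 0 and 12 without overlap (median 0.43, none called). ATR, the kinase that answers replication stress, gave 2152 and 1925 on the PRL-1 arrays, against 1605, 1521 and 1131 on the vector arrays (0.54). TOPBP1, its activator, gave 3318 and 3007 on the PRL-1 arrays, against 2362, 2164 and 1836 on the vector arrays (0.58). Neither gene had overlapping groups. CIP2A, an inhibitor of PP2A, had 0.64, and CEP63, a centriole duplication protein, was the exception at -0.04. SMC4, a condensin subunit, gave 7649 and 7061 on the PRL-1 arrays, against 6825, 6796 and 6551 on the vector arrays (0.13). For NAA50, an N-terminal acetyltransferase of sister chromatid cohesion, the signals were 7311 and 7665 on the PRL-1 arrays, against 6306, 6809 and 3649 on the vector arrays (0.47, 95% interval -0.07 to 1.01). The interval of NAA50 reached below 0, and its vector replicate 3 was far under the other vector arrays.

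Genes of RNA processing and translation had 15 of 16 bright genes above 0 and 9 without overlap (median 0.31, none called). CNBP, a nucleic acid binding protein, gave 14426 and 14479 on the PRL-1 arrays, against 12233, 13480.1 and 10677 on the vector arrays (0.26). U2SURP, a splicing factor of the U2 particle, gave 5144 and 5133 on the PRL-1 arrays, against 4361, 3761 and 2997 on the vector arrays (0.49). The exonuclease XRN1 had 0.31, the splicing regulator MBNL1 0.42 and the helicase DHX36 -0.01. Genes of mitochondrial proteins had 15 of 15 bright genes above 0 and 12 without overlap (median 0.36, none called). MRPL3, a protein of the mitochondrial ribosome, gave 15799.9 and 17043 on the PRL-1 arrays, against 11651, 12629 and 8791 on the vector arrays (0.59). FAM162A, a mitochondrial protein of hypoxic cell death, gave 5142 and 5170.0 on the PRL-1 arrays, against 4181, 3938 and 3913 on the vector arrays (0.36), and all 5 of its tested probe sets lay above 0. The complex I assembly factor ACAD9 had 0.56, the elongation factor GFM1 0.49 and the haem synthesis enzyme CPOX 0.06, the lowest of the list.

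Membrane transporters and pumps, with 7 bright genes including SLC35G2, had all 7 above 0, 5 of them without overlap, and a median of 0.51. SLC35G2 rose, the 1 call among them. ATP6V1A, the catalytic subunit of the proton pump of lysosomes, gave 5719 and 5497 on the PRL-1 arrays, against 3859, 3924 and 2707 on the vector arrays (0.70, 95% interval 0.32 to 1.08). ATP1B3, a beta subunit of the sodium pump, gave 9343 and 9921 on the PRL-1 arrays, against 7138, 6632 and 6132 on the vector arrays (0.54, 0.28 to 0.80). The cation channel TRPC1 had 0.49, and SLC49A4 and SLC41A3 had 0.11 and 0.21 with overlapping groups.

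Signalling genes had 17 of 17 bright genes above 0 and 12 without overlap (median 0.42, none called). GSK3B, a kinase of Wnt and insulin signalling, had 0.43, PIK3CB, a catalytic subunit of phosphoinositide 3-kinase, 0.37, the Wnt receptor RYK 0.46 and the phosphatase PPM1L 0.61. ATG3, a conjugating enzyme of autophagy, gave 4211 and 4351 on the PRL-1 arrays, against 3336, 3211 and 2702 on the vector arrays (0.48), while its second, dimmer tested probe set had -0.34. PDCD10, a protein of vascular junctions and the Golgi, gave 4878 and 4276 on the PRL-1 arrays, against 4553, 4350.1 and 3305 on the vector arrays (0.18), with overlap. The small GTPases RAP2B (0.06) and MRAS (0.08) lay close to 0.

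Genes of transcription and chromatin were the most mixed of the larger lists, with 16 of 19 bright genes above 0, 13 higher and 1 lower without overlap (median 0.33, none called). Beside ZBTB38, USF3 had 0.73 and NFKBIZ, a nuclear cofactor of NF-kappaB, 0.66, and WWTR1, the Hippo pathway coactivator also called TAZ, 0.42. PCNP, a nuclear protein with a degradation motif, gave 9646 and 9320.4 on the PRL-1 arrays, against 7890.1, 8679 and 7286 on the vector arrays (0.26). Close to 0 lay the linker histone gene H1-10, with 6029.6 and 4858 on the PRL-1 arrays, against 5947, 5804 and 5371 on the vector arrays (-0.08), and GATA2, a blood and neural transcription factor (-0.05). KLF15 was the 1 bright gene of the list that was lower without overlap and is described with the other lower members. The 6 dim genes had a median of -0.26 with 1 above 0, beside -0.20 and 34.9% above 0 among dim genes elsewhere. ZBTB20 and ZIC1 among them were lower without overlap, as were 17.2% of dim genes elsewhere. ZIC1 passed the filter for testing only through vector replicates 1 and 2, where it is high, so nothing is read from it. Of all 25 genes of the list 22 passed the filter for testing.

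Among genes of adhesion, matrix and axon guidance, 13 of 14 bright genes lay above 0 and 10 without overlap (median 0.33, none called). ALCAM, an adhesion molecule of the immunoglobulin family, gave 3521 and 3478 on the PRL-1 arrays, against 3075, 2784 and 2187 on the vector arrays (0.40, 95% interval 0.06 to 0.74), and all 3 of its tested probe sets lay above 0. PFN2, which binds actin monomers, gave 7169 and 6829 on the PRL-1 arrays, against 6045, 6431 and 5208 on the vector arrays (0.25). CD47, a ligand that checks phagocytosis, had 0.41, the actin bundler PLS1 0.46 and FSTL1, a secreted glycoprotein, 0.04. The 15 dim genes of this list were divided, with 8 above 0 and a median of 0.03. Of all 29 genes of the list 20 passed the filter for testing, so part of the dim values come from genes that did not.

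Genes of cilium and centrosome had 7 of 8 bright genes above 0 and 4 without overlap (median 0.26, none called). IFT57, a subunit of the transport complex of cilia, gave 2016 and 2336 on the PRL-1 arrays, against 1669, 1773 and 1270.0 on the vector arrays (0.48). CCDC14, a centriolar satellite protein, gave 3298 and 3377 on the PRL-1 arrays, against 3153, 2874 and 2612 on the vector arrays (0.22), and CEP70 had -0.00. Lymphoid and myeloid genes of the segment were dim except CD200R1, with 15 dim genes at a median of -0.13 and 5 above 0. Only 5 of the 16 genes of this list passed the filter for testing, so most of these values come from genes that did not. CD200R1, an inhibitory receptor of myeloid cells, was barely bright and scattered, with 162 and 368 on the PRL-1 arrays, against 297, 345 and 236 on the vector arrays.

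The 17 bright members below 0 were mostly close to it, and in only 1 of them did the groups part. KLF15, a transcription factor of metabolism in muscle, liver and kidney, gave 607 and 498 on the PRL-1 arrays, against 799, 762 and 664 on the vector arrays. Both PRL-1 arrays lay below all vector arrays, for a log2 fold change of -0.43 (95% interval -0.79 to -0.07). Its second tested probe set was dim and lay the other way, with 145 and 127 on the PRL-1 arrays, against 55.0, 148 and 87.9 on the vector arrays, so the probe sets of KLF15 disagreed in direction. Next came CD200R1 (-0.24), MBNL1-AS1, a non-coding transcript beside MBNL1 (-0.23), and C3orf80 (-0.11), all overlapping. PLSCR1, an interferon-induced phospholipid scramblase, gave 1278 and 1258 on the PRL-1 arrays, against 1371, 1183 and 1518 on the vector arrays (-0.09), and the SUMO protease SENP7, the semaphorin receptor PLXNA1 and the carboxypeptidase inhibitor LXN had -0.09, -0.09 and -0.09. The values of these genes did not separate the groups.

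Among dim members bright enough in 1 group to be named, BCHE had the largest difference. BCHE, the gene of butyrylcholinesterase, an enzyme that hydrolyses choline esters, gave 9.47 and 30.7 on the PRL-1 arrays, against 759.8, 757 and 84.0 on the vector arrays. Both PRL-1 arrays lay under a signal of 100, and so did vector replicate 3, so that only 2 vector arrays carried a clear signal. Taken against a signal of 100, BCHE was at least 3.64-fold lower in HEK293-PRL-1 cells (geometric mean of the vector arrays), and it was not called with all arrays. A like order of arrays was seen in ADCY5 and ZIC1, which were chosen after their values were seen. ADCY5, an adenylyl cyclase, gave 34.4 and 20.1 on the PRL-1 arrays, against 200.04, 187 and 37.3 on the vector arrays. ZIC1, a neural transcription factor, gave 9.83 and 13.4 on the PRL-1 arrays, against 133, 169.5 and 18.6 on the vector arrays. In all 3 genes vector replicates 1 and 2 were high and vector replicate 3 lay nearer to the PRL-1 arrays.

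AGTR1, the type 1 angiotensin receptor, gave 63.9 and 132 on the PRL-1 arrays, against 214, 183 and 210.4 on the vector arrays (-1.13, 95% interval -1.97 to -0.30). SERPINI1, the neuronal protease inhibitor neuroserpin, gave 118 and 165 on the PRL-1 arrays, against 276, 197 and 383 on the vector arrays (-0.98, -1.71 to -0.25). Both were lower without overlap and neither was called. On the higher side, GATA2-AS1, a transcript antisense to GATA2, gave 246 and 189 on the PRL-1 arrays, against 150.2, 114 and 116 on the vector arrays (0.78). BOC, a co-receptor of hedgehog signalling, gave 295 and 333 on the PRL-1 arrays, against 210.4, 212 and 190.2 on the vector arrays (0.62). Their groups did not overlap, although a second tested probe set of BOC had -0.16. ASTE1 gave 279 and 356 on the PRL-1 arrays, against 279.9, 249.7 and 125 on the vector arrays, and overlapped by PRL-1 replicate 1.

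Probe sets of the same gene gave a further view of the bright members. Of 124 bright members with 2 or more tested probe sets, all probe sets lay above 0 in 86, all lay below 0 in 3, and 35 were mixed, and 421 of the 547 tested probe sets of all members lay above 0, with a median of 0.26. Like counts for genes elsewhere are not given here, so how far these differ from the rest of the array is not shown. The probe sets also share the contrast on which the segment was chosen and are not separate evidence.

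The call count of the members depended on vector replicate 3. With it left out, limma called 22 members higher and 1 lower, BCHE, beside 0.485% of all tested probe sets higher and 0.441% lower. BCHE had entered the fit only through vector replicates 1 and 2, where it is high, so nothing is read from its call, nor from the members' counts, which rest on the contrast that chose the segment. Those higher included SLC35G2, ZBTB38, TMEM108, C3orf52, RUVBL1, DTX3L, FAIM, ATP6V1A and ATP1B3. With PRL-1 replicate 1, PRL-1 replicate 2, vector replicate 1 or vector replicate 2 left out instead, limma called 0 members, with 78, 91, 164 and 144 probe sets of members higher and 6, 9, 7 and 8 lower at an unadjusted p under 0.05, beside 5.13%, 6.07%, 9.53% and 8.27% of all tested probe sets in either direction.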

How the data were processed

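Signals of HG-U133 Plus 2.0 arrays from 2 HEK293-PRL-1 and 3 HEK293-vector cultures were analysed, grouped by the sample labels. The authors deposited MAS5 values, linear-scale intensity values that the affy library computed with its defaults and scaled so that each array had a trimmed mean (2% off each end) of 500.0. No genome build is given for the probe sets in the sources used here. MAS5 subtracts mismatch estimates, which makes log2 values of dim probe sets noisy. The number of arrays limits the precision.

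Of 54675 probe sets, 62 controls were left out and 33818 with a signal of at least 100 on at least 2 arrays were tested. On log2 signals, limma 3.58.1 was run under R 4.3.3 (lmFit, eBayes with intensity trend, two-sided), with group as the only term and Benjamini-Hochberg adjustment over all tested probe sets. The fit was first tested on simulated data. Where a fold is given as a lower bound, the group with every array below 100 was set to 100 for that fold alone. All log2 fold changes, and the medians, quartiles, shares and overlap counts built on them, used the signals without this limit. Those of dim genes therefore include values from groups with every array below 100.

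Names came from the platform annotation, updated by gene identifier to the RefSeq GRCh38.p14 gene table, which gave the gene order. The 41091 probe sets with 1 symbol were used, and not the 1801 with several or the 11721 that the annotation used does not list. Members had 890 probe sets, 547 of them tested. Promoter windows came from RefSeq.

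The members and the gene lists were chosen with earlier results of these data known. Genes named are the end genes, called members, the 8 highest and 8 lowest bright members, the 2 brightest of each list, SLC35G2 with 3 measured members on each side, the 3 highest and 3 lowest dim members whose higher group averaged 200 or more, the 2 members on each side of the threshold, and further list members as examples, chosen after their values were seen. Of the listed genes 9 were no members. Alternatives covered a replicate block, the filter, an offset of 32 before the log, median centring, quantile normalization, the variance trend, array weights, the t-test of the methods, the choice of probe set, the threshold and each array left out.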

Additional observations from a re-analysis of the deposited data

How the results depend on the processing

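The median log2 fold change of the bright members stayed above 0 in every alternative run, between 0.27 with bright genes taken from a log2 signal of 7 and 0.38 without vector replicate 1, and the share above 0 ran from 79.0% to 94.0%. Dim members ran from -0.25 without PRL-1 replicate 2 to -0.01 without PRL-1 replicate 1, and quantile normalization also gave -0.01. The middle part of the segment moved to 0.25 without probe sets that can match several transcripts and to 0.26 with bright genes from a log2 signal of 7. Restricting dim members to tested probe sets, the steps of brightness, the split by coding genes and the directions of calls without single arrays were chosen after seeing the data. Calls were unstable. Among members the 1 call became 0 without the filter, after quantile normalization, after median centring, without the variance trend and with the t-test of the methods, and 17 with array weights. Leaving out 1 array gave 0 to 23 members called and 11 to 313 probe sets in all, with 11 without PRL-1 replicate 1, 15 without PRL-1 replicate 2, 43 without vector replicate 1, 27 without vector replicate 2 and 313 without vector replicate 3. In all, 65 calls became 9 without the trend, 0 with the t-test of the methods (2905 at an unadjusted p under 0.05) and 275 with array weights. The study itself applied its t-test to fewer probe sets, after a presence filter, and at a looser cutoff, and listed SLC35G2 as higher. The count with the t-test here is therefore not that of the study. Replicate numbers did not pair the arrays (correlation of deviations 0.00449 over 33818 probe sets). A replicate block, which sets aside the unpartnered vector replicate 3, gave 32 members and 448 calls in all, and a median of 0.28 for bright and -0.09 for dim members. Over the named genes, 616 values under alternatives stayed on their side of the threshold, 24 gained a call and 8 lost one, all 8 being SLC35G2. Of the 616, 9 changed sign, in 6 uncalled genes (CD200R1, PLXNA1, H1-10, SLCO2A1, LXN and C3orf80), and all 9 came from leaving out 1 array or from the block. Without PRL-1 replicate 1, CD200R1 had 0.35 in place of -0.24. What lies behind these changes was not tested.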
